A study of Mus musculus with 5 samples.

Results

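B2_Mm1a, B2_Mm1t, B2_Mm1o and B2_Mm2 are the 4 subfamilies of the mouse short interspersed element B2 that were counted by melRNA-seq, the sequencing of medium-length RNAs, in mouse testis and spermatogonia. They were taken by name from the deposited read counts, as 4 of the 1038 repeat and RNA names listed in at least 1 library, and no other listed name begins with B2. The data comprise 5 libraries of C57BL/6J mice, all labelled as RNA of 115 to 255 nt. Whole-testis RNA of postnatal day 7 gave 3 libraries from 600 ng each: untreated, treated with 25 U of TAP (given in the labels as Tobacco alkaline phosphatase) for 1.5 h, or treated with 20 U of 5' polyphosphatase for 30 min. Spermatogonia, the mitotic germ cells, were sorted by the surface protein EpCAM at postnatal day 7 and gave 2 replicate libraries treated with 25 U of RppH for 1 h. The labels number these replicates without naming animals. The tables list repeats and small RNAs only, so the identity of the sorted cells could not be checked against marker genes here.

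B2 is a retrotransposon that arose from a tRNA gene. Its RNA is made by RNA polymerase III (Pol III) from an internal promoter with an A box and a B box, begins with a 5' triphosphate, ends in an A-rich tail, and is copied back into the genome by the reverse transcriptase of LINE-1. B2 RNA is known from embryonic and undifferentiated cells and from heat shock, when it binds RNA polymerase II. The adaptor used here joins only to a 5' monophosphate. TAP and RppH make that end from caps and from triphosphates, 5' polyphosphatase from triphosphates alone.

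To show what the 4 names stand for, 1 genomic copy of each subfamily is printed on its own strand, with every match to the A box letters TGGCNNAGNGG or the B box letters GTTCNANTCC in capitals (both strands were searched, and the other strand held none). Each is the least diverged copy of at least 180 bases in the portion of the study's chromosome 1 list that was held, among those lying whole in an exon of a non-coding GENCODE transcript and outside UTRs. The candidates numbered 6 for B2_Mm1a, 1 for B2_Mm1t, 5 for B2_Mm1o and 11 for B2_Mm2. The B2_Mm1a copy is at chr1:58455909-58456104 on the minus strand (build GRCm38), in a retained-intron transcript of Nif3l1, which lies on the plus strand. The B2_Mm1t copy is at chr1:38892177-38892364 on the plus strand, in a retained-intron transcript of Chst10, which lies on the minus strand. The B2_Mm1o copy is at chr1:13355807-13355994 on the minus strand, in the same-strand gene Gm38380, an unclassified transcript (TEC). The B2_Mm2 copy is at chr1:58715361-58715549 on the minus strand, in a retained-intron transcript of Cflar, which lies on the plus strand. The counts carry no genomic positions, so whether any read came from these copies is not known.
B2_Mm1a: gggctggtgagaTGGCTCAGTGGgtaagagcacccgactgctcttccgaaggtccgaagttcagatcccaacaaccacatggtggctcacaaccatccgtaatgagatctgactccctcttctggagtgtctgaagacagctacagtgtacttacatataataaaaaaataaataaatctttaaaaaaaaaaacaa
B2_Mm1t: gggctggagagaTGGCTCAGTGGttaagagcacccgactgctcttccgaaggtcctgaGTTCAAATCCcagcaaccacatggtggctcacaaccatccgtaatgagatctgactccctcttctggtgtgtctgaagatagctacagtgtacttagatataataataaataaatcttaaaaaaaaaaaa
B2_Mm1o: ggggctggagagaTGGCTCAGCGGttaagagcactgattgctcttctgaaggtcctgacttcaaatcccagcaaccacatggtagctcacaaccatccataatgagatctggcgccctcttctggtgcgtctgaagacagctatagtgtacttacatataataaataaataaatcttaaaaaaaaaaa
B2_Mm2: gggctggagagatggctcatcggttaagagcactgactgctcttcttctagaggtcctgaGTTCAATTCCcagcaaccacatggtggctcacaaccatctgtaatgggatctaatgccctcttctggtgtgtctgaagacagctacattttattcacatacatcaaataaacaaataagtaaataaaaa

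The B2_Mm1t copy holds both boxes, at bases 13 to 23 and 59 to 68. The B2_Mm1a copy matches the A box letters at bases 13 to 23 and the B2_Mm1o copy at bases 14 to 24, while the B2_Mm2 copy matches the B box letters at bases 61 to 70. A missing match means only that these letters are not in that copy. For comparison, 1.38% of 32851 RefSeq promoter windows of 190 bases held the A box letters on either strand and 0.703% held the B box letters. The 3 B2_Mm1 copies resemble each other most, with 94.7% identical bases between B2_Mm1a and B2_Mm1t, 93.0% between B2_Mm1t and B2_Mm1o and 89.8% between B2_Mm1a and B2_Mm1o. The B2_Mm2 copy shared 81.3% to 83.3% of aligned bases with them, and held 1 CpG site against 3 or 4 in the others. Reads of such similar repeats can be exchanged between names in the assignment, most easily among the B2_Mm1 names.

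The libraries held from 1067851 to 3166394 listed reads, of which 5.8S rRNA took 19.2% to 50.2%. Levels are given as RPM, the reads of a name for every 1000000 reads of 5.8S rRNA in its library, and were not divided by length, since each read spans a whole insert. A level resting on 3 reads would be 2.43 to 14.4 RPM, below every B2 level that follows. Intervals are 95% intervals from the read counts. They cover the counting error of reads only. The reads carry no molecular identifiers, so PCR copies count as separate reads and the error for RNA molecules may be larger. With 1 library per testis treatment, the intervals compare the libraries, not the treatments. The testis enzymes could be checked on U5 snRNA, a capped RNA, with 24.6 times its untreated level in the TAP library (23.7 to 25.4) and 0.896 times in the 5' polyphosphatase library (0.847 to 0.948). Capped U1 and U4 snRNA gave a less clear check. U1 was at 7.21 with TAP and also at 1.84 with 5' polyphosphatase, and U4 at only 1.15 and 0.897. RppH could not be checked in this way, as spermatogonia have no untreated library.

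All 4 subfamilies were detected in every library, lowest in untreated testis RNA, higher after TAP, higher again after 5' polyphosphatase and highest in spermatogonia. B2_Mm2, the subfamily with the most reads in each library, had 68 reads in untreated testis, 362 with TAP, 465 with 5' polyphosphatase, 79910 in spermatogonia replicate 1 and 60222 in replicate 2. Its levels were 215 RPM (exact Poisson 95% interval 167 to 273), 675 RPM (608 to 749), 2236 RPM (2037 to 2448), 64602 RPM (64155 to 65052) and 116798 RPM (115867 to 117735) in the same order. B2_Mm2 was thus the fifth and sixth most abundant of all names in the spermatogonia replicates, and the name with the most reads among all SINE names in 4 of the 5 libraries, the exception being untreated testis, where its rank was 2.

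B2_Mm1o, a subfamily that the authors defined and added to those of RepeatMasker, had 51, 297 and 407 reads in the untreated, TAP and 5' polyphosphatase libraries, and 22401 and 17386 in spermatogonia. The levels of B2_Mm1o were 161 RPM (120 to 212), 554 RPM (493 to 621), 1957 RPM (1771 to 2156), 18110 RPM (17873 to 18349) and 33719 RPM (33220 to 34224). B2_Mm1o stood next below B2_Mm2 in every library, but the intervals of their levels overlapped in all 3 testis libraries. B2_Mm2 had 1.33 reads per B2_Mm1o read without enzyme (0.927 to 1.92), 1.22 after TAP (1.05 to 1.42) and 1.14 after 5' polyphosphatase (1.0002 to 1.31), against 3.57 (3.51 to 3.62) and 3.46 (3.41 to 3.52) in spermatogonia.

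B2_Mm1a, which the study counts with B2_Mm1t among the youngest B2 subfamilies, had 26, 143 and 195 reads in the testis libraries and 17088 and 11190 in spermatogonia. These counts correspond to 82.2 RPM (53.7 to 121), 267 RPM (225 to 314), 938 RPM (811 to 1079), 13814 RPM (13608 to 14023) and 21702 RPM (21302 to 22108). B2_Mm1t, the least abundant of the 4 in every library, had 25, 120 and 131 reads in testis and 9149 and 7493 in spermatogonia. Its levels were 79.1 RPM (51.2 to 117), 224 RPM (186 to 268), 630 RPM (527 to 747), 7396 RPM (7246 to 7550) and 14532 RPM (14205 to 14865). B2_Mm1a and B2_Mm1t did not differ beyond counting error in the untreated library, with 1.04 B2_Mm1a reads per B2_Mm1t read (0.601 to 1.80), nor in the TAP library, with 1.19 (0.935 to 1.52). In the 5' polyphosphatase library the quotient was 1.49 (1.19 to 1.86), and in spermatogonia 1.87 (1.82 to 1.92) and 1.49 (1.45 to 1.54).

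**Figure D1:**
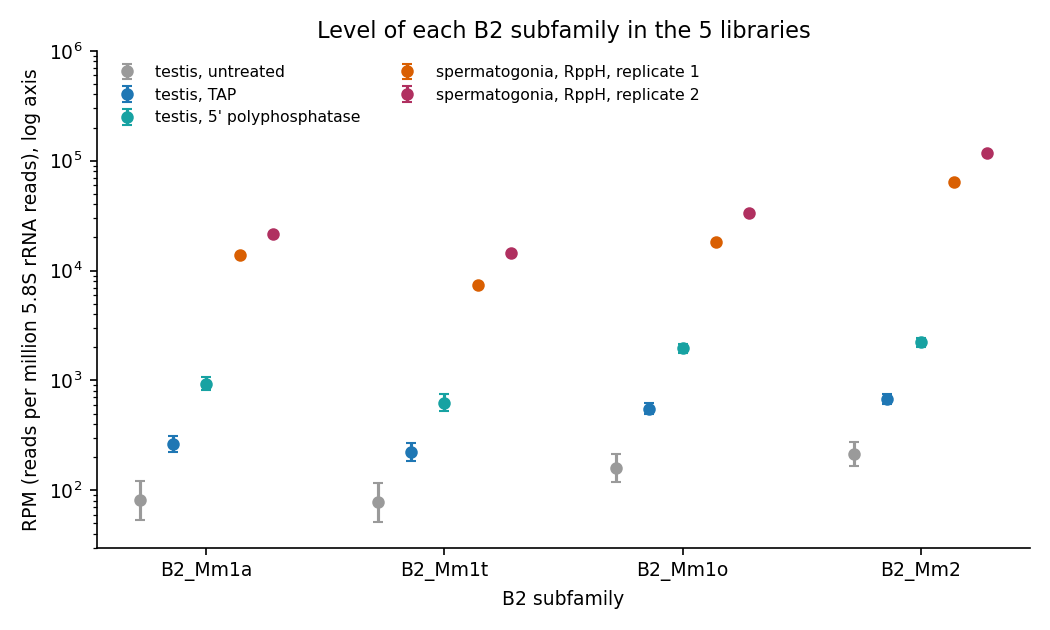
Level of each B2 subfamily in RPM (log axis) in the 5 libraries. Points are single libraries and bars exact Poisson 95% intervals, which are smaller than the points in spermatogonia, and in each subfamily the levels run from untreated testis (79.1 to 215 RPM) up to spermatogonia replicate 2 (14532 to 116798 RPM).

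The first comparison asked how far the B2 reads depended on enzymatic opening of the 5' end. The sum of the 4 subfamilies was 170 reads without enzyme (538 RPM), 922 after TAP (1720.1 RPM) and 1198 after 5' polyphosphatase (5760 RPM). After TAP the ratio per 5.8S rRNA read was 3.24 (2.14 to 4.93) for B2_Mm1a, 2.83 (1.84 to 4.36) for B2_Mm1t, 3.43 (2.55 to 4.62) for B2_Mm1o and 3.14 (2.42 to 4.07) for B2_Mm2. All 4 subfamilies were past 2-fold, as were 29.1% of the 323 names with at least 10 reads in both libraries together, whose median ratio was 0.590. The direction depended on the denominator: per 5S rRNA read the ratio of the B2 sum was 0.773, and per listed read without rRNA and snoRNA names 0.527, while per listed read it was 5.90. 5S rRNA, itself a Pol III transcript with a 5' triphosphate, had a ratio of 4.14 (3.99 to 4.30) per 5.8S rRNA read.

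The ratio of the 5' polyphosphatase library to the untreated library was 11.4 (7.57 to 17.2) for B2_Mm1a, 7.96 (5.19 to 12.2) for B2_Mm1t, 12.1 (9.06 to 16.2) for B2_Mm1o and 10.4 (8.06 to 13.4) for B2_Mm2. Again all 4 were past 2-fold, beside 41.1% of 314 names, and they ranked from 44 to 56 among these names. For the B2 sum the ratio stayed above 1 under all 6 other denominators, between 1.49 and 8.18. Between the enzymes, the level after TAP was 0.285 (0.229 to 0.353) of that after 5' polyphosphatase for B2_Mm1a, 0.355 (0.277 to 0.455) for B2_Mm1t, 0.283 (0.244 to 0.329) for B2_Mm1o and 0.302 (0.263 to 0.347) for B2_Mm2. This gap was not particular to B2, since 68.8% of 346 names were at least 2-fold higher after 5' polyphosphatase than after TAP and the 4 subfamilies ranked from 163 to 196. The 5.8S rRNA denominator was 50.2% of listed reads after TAP and 19.2% after 5' polyphosphatase, and with median-of-ratios size factors in its place the ratio of the B2 sum was 0.994.

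The 4 subfamilies did not separate from each other in these ratios. As odds against the other B2 reads, which do not depend on a denominator, the odds of B2_Mm2 in the TAP library were 0.970 times those in the untreated library (0.694 to 1.35), and in the 5' polyphosphatase library 0.952 times (0.685 to 1.32). The largest departure from 1 was that of B2_Mm1t after 5' polyphosphatase, at 0.712 (0.449 to 1.13), and all 12 intervals included 1. With 170 B2 reads in the untreated library, differences of this size were not detectable at this depth.

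B3 is an older relative of B2, and B4 a composite element with ID- and B1-like parts. Their ratios of TAP to untreated were 4.34 (3.14 to 5.99) for B3, 4.72 (2.76 to 8.07) for B3A, 5.90 (2.55 to 13.7) for B4 and 4.51 (2.97 to 6.84) for B4A, above those of the B2 subfamilies but with overlapping intervals. There were 2.98 B2 reads per read of B3 and B3A without enzyme (2.21 to 4.03) and 2.15 after TAP (1.92 to 2.41), so these intervals overlapped, and 3.50 (3.11 to 3.95) after 5' polyphosphatase. Per read of B4 and B4A the numbers were 5.48 (3.74 to 8.04), 3.67 (3.19 to 4.22) and 9.22 (7.69 to 11.0). Relative to both families, the B2 sum was therefore lower after TAP than after 5' polyphosphatase beyond counting error. The opposite held against B1, the SINE family derived from 7SL RNA, with 0.813 B2 reads per B1 read without enzyme (0.664 to 0.996), 1.37 after TAP (1.24 to 1.51) and 1.02 after 5' polyphosphatase (0.943 to 1.11).

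Among other Pol III transcripts, U6 snRNA, which carries a methylated 5' triphosphate, was at 1.27 (0.869 to 1.86) times its untreated level with TAP and 3.55 (2.44 to 5.16) times with 5' polyphosphatase. 7SK RNA, with the same kind of 5' end, stood at 3.44 (3.14 to 3.76) with TAP and 2.29 (2.05 to 2.54) with 5' polyphosphatase. The Y1 and Y3 RNAs had 1.19 (0.831 to 1.71) and 3.21 (2.24 to 4.60), and the sum of tRNA names 0.827 (0.809 to 0.846) and 1.93 (1.89 to 1.98). The capped U1 snRNA had 7.21 (6.37 to 8.17) with TAP and 1.84 (1.56 to 2.16) with 5' polyphosphatase, and U4 snRNA 1.15 (1.05 to 1.27) and 0.897 (0.791 to 1.02). With a larger ratio after 5' polyphosphatase than after TAP, the 4 B2 subfamilies lay on the side of 5S rRNA, U6, Y and tRNA names, and 7SK, U1, U4 and U5 lay on the other. This grouping holds per 5.8S rRNA read: per listed read 5S rRNA (7.63 after TAP, 5.07 after 5' polyphosphatase) and the tRNA names (1.52 and 1.36) turned to the other side, while the B2 sum (5.90 and 7.56) did not.

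**Figure D2:**
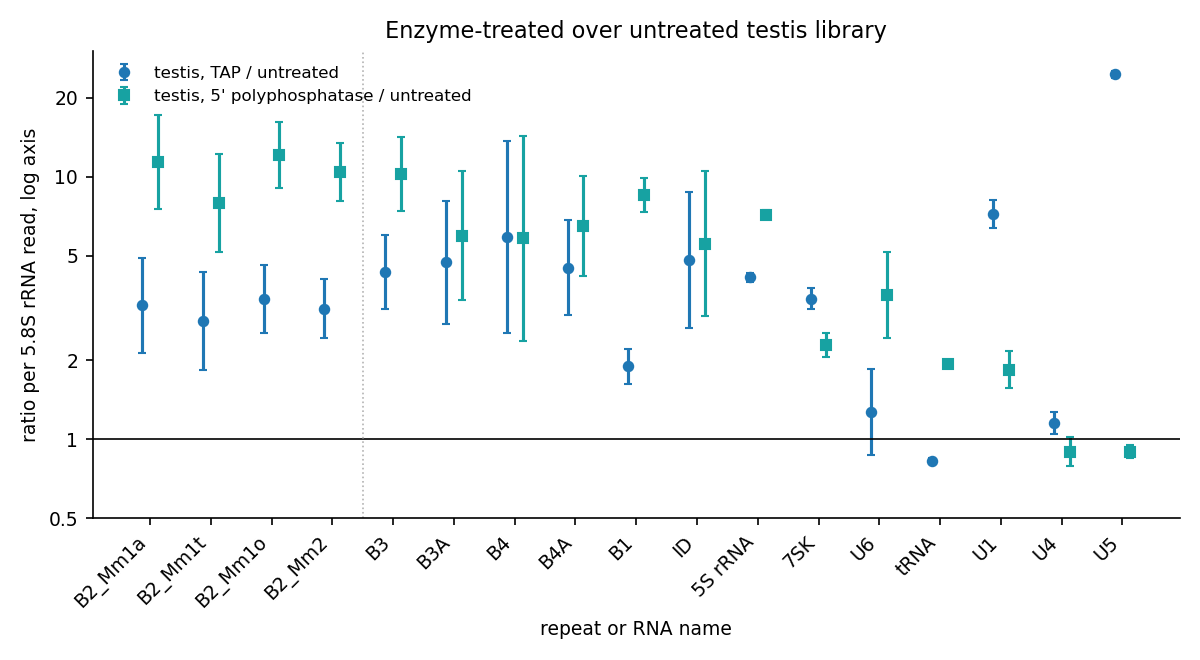
Ratio of the TAP (circles) and 5' polyphosphatase (squares) testis libraries to the untreated library per 5.8S rRNA read (log axis), with 95% intervals from the read counts. The B2 subfamilies, left of the dotted line, lie at 2.83 to 3.43 (circles) and 7.96 to 12.1 (squares), and U5 at 24.6 and 0.896.

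The spermatogonia libraries were compared with testis to ask whether B2 RNA is present in germ cells. B2 took 4.06% and 4.83% of the listed reads in the spermatogonia replicates, against 0.0146% to 0.111% in the testis libraries. Listed reads are only part of the deposited totals, which are given for every library but TAP. The spermatogonia replicates had 3166394 listed of 6138958 reads and 1993087 of 4949378, so their B2 percentages of all reads are lower. The mean levels were 17758 ± 5578 RPM for B2_Mm1a, 10964 ± 5046 RPM for B2_Mm1t, 25915 ± 11038 RPM for B2_Mm1o and 90700 ± 36908 RPM for B2_Mm2 (SD, n = 2). Replicate 2 was 1.57 to 1.96 times replicate 1 in the 4 subfamilies. Per listed read the same quotient was 1.04 to 1.30, so the replicates lay closer together with that denominator.

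Relative to the TAP library, B2_Mm2 was 134 ± 54.7-fold higher in spermatogonia (SD, n = 2), a ratio of 95.7 for replicate 1 (86.3 to 106) and of 173 for replicate 2 (156 to 192). The ratio was 66.6 ± 20.9 for B2_Mm1a, 49.0 ± 22.5 for B2_Mm1t and 46.8 ± 19.9 for B2_Mm1o. In both replicates all 4 subfamilies were at least 2-fold above the TAP library, beside 53.6% of 468 names. These were the names listed for both testis and spermatogonia with at least 10 reads in the libraries compared. The 4 subfamilies ranked from 39 (B2_Mm2) to 63 (B2_Mm1o) among them, and the median ratio of these names was 3.02. Against the 5' polyphosphatase library the ratios were 40.6 ± 16.5 for B2_Mm2, 18.9 ± 5.95 for B2_Mm1a, 17.4 ± 8.01 for B2_Mm1t and 13.2 ± 5.64 for B2_Mm1o (SD, n = 2). All 4 were past 2-fold there too, beside 35.9% of 462 names chosen in the same way, with ranks from 42 to 64. With the 6 other denominators the ratio to the 5' polyphosphatase library ran from 9.66 (listed reads without rRNA and snoRNA) to 93.1 (5S rRNA reads) for B2_Mm2, from 4.67 to 45.6 for B2_Mm1a, from 4.06 to 38.8 for B2_Mm1t and from 3.13 to 30.1 for B2_Mm1o. That to the TAP library ran from 59.3 to 178 for B2_Mm2, from 29.7 to 92.5 for B2_Mm1a, from 21.5 to 63.0 for B2_Mm1t and from 20.6 to 61.3 for B2_Mm1o. The size of each ratio thus depended on the denominator, while all of them stayed above 1.

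Per listed read, the ratio to the TAP library was 81.8 ± 10.4 for B2_Mm2, 41.1 ± 1.15 for B2_Mm1a, 29.6 ± 5.47 for B2_Mm1t and 28.4 ± 4.19 for B2_Mm1o (SD, n = 2). B2_Mm2 came first, B2_Mm1a next, and B2_Mm1t and B2_Mm1o last with both denominators. In each replicate the interval of B2_Mm2 lay above those of the other 3, whereas B2_Mm1t and B2_Mm1o did not differ beyond the replicate spread. Tissue, enzyme and library kit changed together between these groups, so their effects cannot be told apart, nor can more expressing cells and more RNA per cell. The lists of names changed as well: testis had 706 names and spermatogonia 944, with 612 in common, and none of the L1Md names was shared, with 6 in testis and 25 in spermatogonia. The part of this difference in the assignment of B2 reads was not tested.

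Against the TAP library the other SINEs compared had smaller mean ratios than the 4 B2 subfamilies, at 16.3 ± 5.43 for B3, 7.72 ± 3.42 for B3A, 2.48 ± 0.725 for B4, 2.89 ± 1.34 for B4A, 32.2 ± 17.4 for B1 and 23.6 ± 11.3 for ID (SD, n = 2). The replicates of B1, a sum of 10 subfamilies, were at 19.8 and 44.5. Their range overlapped those of B2_Mm1o (32.7 and 60.9) and B2_Mm1t (33.0 and 64.9). The B1 subfamilies were not compared singly. Among them, B1_Mus2 had 362 RPM after TAP and 9189 and 19146 RPM in the spermatogonia replicates. Against the 5' polyphosphatase library the mean ratio was not smaller for ID, whose ratio of 20.4 ± 9.76 was above those of B2_Mm1a, B2_Mm1t and B2_Mm1o by less than the replicate spread. The ratios of B1 (7.17 ± 3.88), B3 (6.89 ± 2.30), B3A (6.10 ± 2.70), B4 (2.52 ± 0.734) and B4A (2.00 ± 0.928) were lower there (SD, n = 2). In quotients of reads, which need no denominator, there were 12.5 (12.2 to 12.7) and 13.5 (13.2 to 13.8) B2 reads per B3 or B3A read in spermatogonia, against 2.15 to 3.50 in the testis libraries. For B1 the quotient was 4.17 (4.12 to 4.22) and 3.34 (3.30 to 3.39), against 0.813 to 1.37, and for ID it was 36.5 (35.3 to 37.7) and 32.4 (31.2 to 33.6), against 9.41 to 27.2. The ID quotients of the 5' polyphosphatase library (20.2 to 36.8) and of spermatogonia overlapped in their intervals. Per read of B4 or B4A the quotient was 113.9 (107 to 121) and 109.7 (103 to 117), against 3.67 to 9.22. Of the other Pol III transcripts, U6 snRNA was 97.7 ± 57.6-fold higher than after TAP, the tRNA names 2.68 ± 1.46-fold, and the Y1 and Y3 RNAs 2.71 ± 1.38-fold (SD, n = 2). The tRNA sum includes genes whose profiles follow B2, named below. AlaTGC trna363 alone gave 11950 of 75255 tRNA reads in replicate 1, 8278 of 70795 in replicate 2 and 101 of 19840 after TAP. The ratio without such names was not computed. For 5S rRNA the ratio was 0.383 in replicate 1 and 1.63 in replicate 2, and 7SK RNA is listed for testis only.

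**Figure D3:**
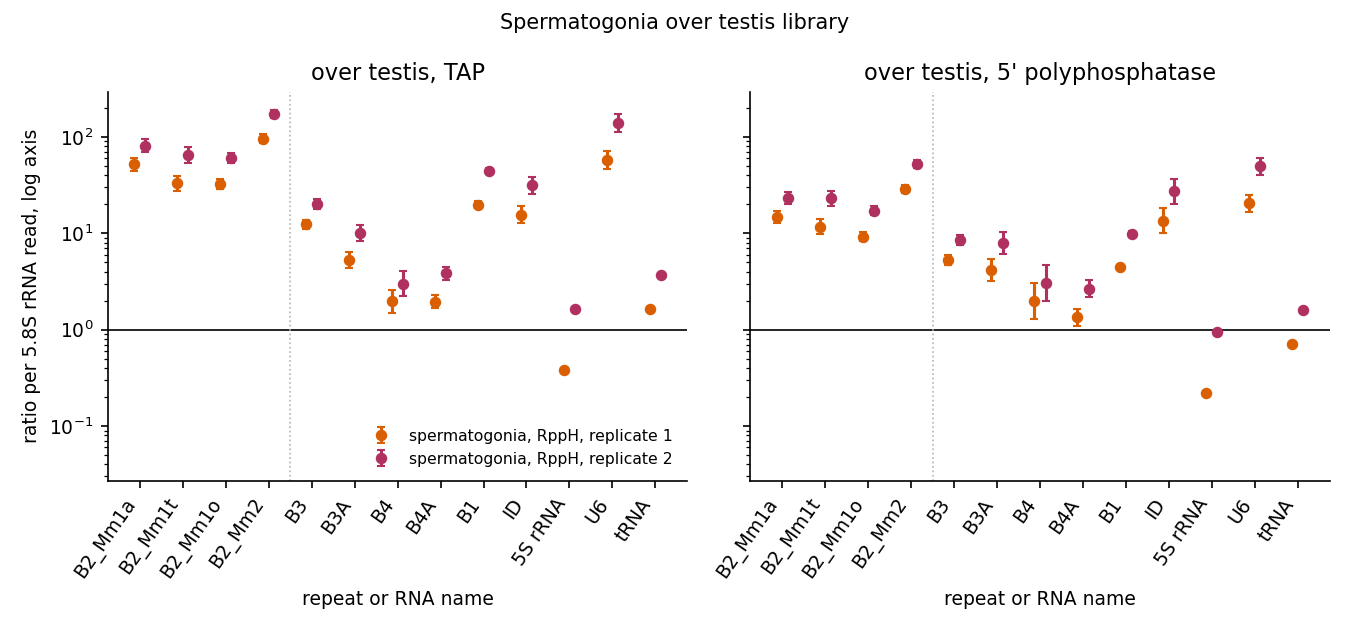
Ratio of each spermatogonia replicate to the TAP (left) and 5' polyphosphatase (right) testis library per 5.8S rRNA read (log axis), with 95% intervals from the read counts. Among the SINE names shown B2_Mm2 is highest in both panels, at 95.7 and 173 over TAP, and U6 snRNA is the other name near it.

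The composition of the B2 reads differed between the testis and spermatogonia libraries. Enzyme, library kit and listed names also differ between these groups, so a tissue effect on the shares cannot be told apart from theirs. B2_Mm2 made up 40.0% of the B2 reads without enzyme (Wilson 95% interval 32.9% to 47.5%), 39.3% after TAP (36.2% to 42.5%) and 38.8% after 5' polyphosphatase (36.1% to 41.6%), but 62.2% (61.9% to 62.4%) and 62.5% (62.2% to 62.8%) in the spermatogonia replicates. B2_Mm1o moved the other way, with 30.0% (23.6% to 37.3%), 32.2% (29.3% to 35.3%) and 34.0% (31.3% to 36.7%) in testis and 17.4% (17.2% to 17.6%) and 18.1% (17.8% to 18.3%) in spermatogonia. The mean in spermatogonia was 23.1 points above the TAP library for B2_Mm2 and fell by 14.5 points for B2_Mm1o, while the replicates were 0.378 and 0.630 points apart.

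B2_Mm1t took 14.7% (10.2% to 20.8%), 13.0% (11.0% to 15.3%) and 10.9% (9.29% to 12.8%) of the B2 reads in testis and 7.12% (6.98% to 7.26%) and 7.78% (7.61% to 7.95%) in spermatogonia. The share of B2_Mm1a was 15.3% (10.7% to 21.5%), 15.5% (13.3% to 18.0%) and 16.3% (14.3% to 18.5%) in testis and 13.3% (13.1% to 13.5%) and 11.6% (11.4% to 11.8%) in spermatogonia. For each of the 4 subfamilies the values of the 3 testis libraries and the 2 spermatogonia libraries did not overlap, though the 4 shares of a library sum to its total and are not independent. How often other names separate in this way was not counted, and so few libraries can separate without a difference between the groups. The 3 testis libraries are different treatments of whole-testis RNA, not replicate samples. For B2_Mm1a the interval of replicate 1 overlapped those of the untreated and TAP libraries. Together the youngest names B2_Mm1a and B2_Mm1t gave 27.2% to 30.0% of the B2 reads in testis and 19.4% to 20.4% in spermatogonia.

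**Figure D4:**
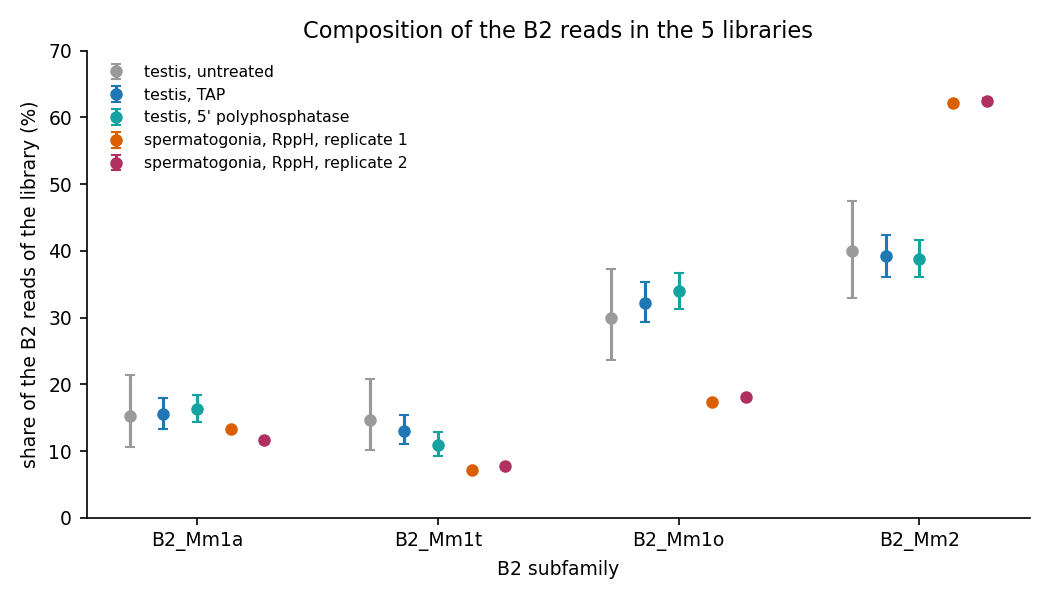
Share of each subfamily in the B2 reads of a library (percent), with Wilson 95% intervals. B2_Mm2 is at 38.8% to 40.0% in the testis libraries and at 62.2% and 62.5% in spermatogonia, and the other 3 subfamilies are lower in spermatogonia.

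The odds of B2_Mm2 against the other B2 reads were 2.54 (2.23 to 2.90) and 2.58 (2.26 to 2.95) times higher in the spermatogonia replicates than after TAP. Over all 6 pairs of a spermatogonia and a testis library this odds ratio ran from 2.46 to 2.63. It ran from 0.410 to 0.514 for B2_Mm1o and from 0.444 to 0.687 for B2_Mm1t, and none of these intervals reached 1. For B2_Mm1a it ran from 0.676 to 0.849, with intervals that included 1 against the untreated library and left it out, narrowly for replicate 1 over TAP (0.835, 0.698 to 0.999), against the enzyme-treated ones. Between the spermatogonia replicates the odds ratio was 0.858 (0.836 to 0.880) for B2_Mm1a, 1.10 (1.07 to 1.14) for B2_Mm1t, 1.04 (1.02 to 1.07) for B2_Mm1o and 1.02 (0.999 to 1.03) for B2_Mm2. The replicates thus differed beyond counting error in 3 of the 4 subfamilies, and for B2_Mm1a by about as much as the replicate 1 value differed from testis.

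**Figure D5:**
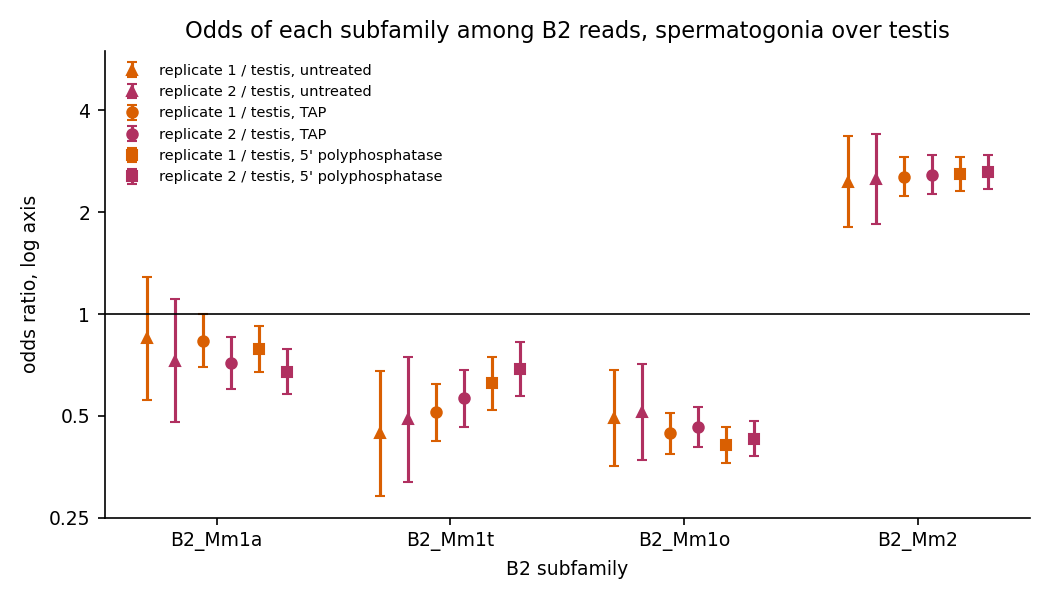
Odds ratio of each subfamily against the other B2 reads, spermatogonia replicate over testis library (log axis), with 95% intervals from the read counts. The 6 values of B2_Mm2 lie between 2.46 and 2.63 and those of the other subfamilies below 1.

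The names with the profile most like that of B2 over the 5 libraries were found among 208 names with at least 10 reads in each of the 4 enzyme-treated libraries, 56 of them tRNA names. The measure was the root mean square difference of log2(RPM + 1), each profile centred on its own mean. The nearest to the B2 sum were 4 tRNA genes, AlaTGC trna363 on chromosome X (0.17), AlaAGC trna71 on chromosome 13 (0.39), CysGCA trna157 on chromosome 6 (0.40) and ValAAC trna1183 on chromosome 4 (0.43), followed by U6 snRNA (0.57). B2_Mm1a was nearest to AlaTGC trna363 at 0.03, closer than to any B2 subfamily, of which B2_Mm1o was nearest at 0.26. That tRNA name had 19, 101 and 140 reads in testis and 11950 and 8278 in spermatogonia, so there were 1.37, 1.42, 1.39, 1.43 and 1.35 B2_Mm1a reads per read of it in the 5 libraries. A mature tRNA is shorter than the selected inserts, and whether reads under this or the other tRNA names given here come from B2 copies was not tested.

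B2_Mm1t was nearest to AlaAGC trna71 (0.11), which had only 3 to 14 reads in the testis libraries, and B2_Mm1o to ValAAC trna1183 (0.15), with 1.47 to 1.96 B2_Mm1o reads per read of it. B2_Mm2 had no name as close: the nearest was AlaTGC trna363 at 0.50, with 3.32 to 3.58 B2_Mm2 reads per tRNA read in testis and 6.69 and 7.27 in spermatogonia. Among the subfamilies themselves the distance was 0.20 to 0.29 within the 3 B2_Mm1 names and 0.50 to 0.75 from B2_Mm2 to each of them. These distances are descriptions over 5 libraries, and all names in a library share its depth and denominator.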

How the data were processed

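The authors read the libraries on a MiSeq, trimmed with Cutadapt, kept reads that held the adaptor and named them with RepeatMasker. Versions are not given in the sources used here. The deposited values are counts, reads under each repeat or RNA name and library, not normalized. One line without a count in each of the untreated and 5' polyphosphatase tables was skipped. For spermatogonia the labels repeat the testis protocol, so the RppH dose and the NEBNext kit follow the methods; testis libraries used the TruSeq kit.

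From the counts, RPM, ratios, shares and odds ratios were computed with Python 3.11.15, numpy 2.4.6, pandas 2.3.3 and scipy 1.17.1; figures were drawn with matplotlib 3.10.9. Intervals are at the 95% level: exact Poisson for RPM, Wilson for shares, and from the log ratio or log odds ratio otherwise. The ratio and odds ratio intervals were tested on simulated counts with counting error only, which cannot show how they cover the spread between libraries. No test between groups was made, as each testis treatment has 1 library. Names past 2-fold were counted among those with at least 10 reads in the libraries compared. For spermatogonia against testis, only names listed for both were counted and ranked. TMM library sizes came from edgeR 4.0.16 in R 4.3.3.

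Families were B1 (10 subfamilies), B2 (4), B3 with B3A, B4 with B4A, and all names beginning with ID. Names in the text are the 4 B2 subfamilies, these families, a list of Pol III transcripts and capped snRNAs, and the names with the nearest profiles (pseudocount 1 RPM). Members and lists were chosen with earlier results of these data known. Genomic copies were read from GENCODE M21 transcripts of GRCm38, and promoter windows from RefSeq. As alternatives, other denominators, testis libraries, read minimums and pseudocounts were tried and each replicate was left out. The numbers of sequenced reads used as one such denominator are those of the study.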

Additional observations from a re-analysis of the deposited data

How the results depend on the processing

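The change in composition kept its direction throughout: of 20 alternative odds ratios of the subfamily shares, 19 stayed close and 1 moved, that of B2_Mm1t, from 0.538 over the TAP library to 0.656 over the 5' polyphosphatase library. These alternatives changed only the testis reads used or left out a replicate. None varied the kit, the enzyme used on spermatogonia or the assignment of names, so the part of these was not tested. Leaving out replicate 1 or 2 of spermatogonia gave 2.54 to 2.58 for B2_Mm2, 0.444 to 0.464 for B2_Mm1o, 0.512 to 0.564 for B2_Mm1t and 0.716 to 0.835 for B2_Mm1a. No name had to be added to B2, so that alternative gave no value.

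The enzyme ratios moved with the denominator. In the order of 5S rRNA reads, TMM library sizes, all listed reads, all sequenced reads, listed reads without rRNA and snoRNA, and median-of-ratios size factors, the B2 ratio of TAP to untreated was 0.773, 6.32, 5.90, 5.17, 0.527 and 5.69. That of 5' polyphosphatase to untreated was 1.49, 6.43, 7.56, 8.18, 6.45 and 5.72, and that of TAP to 5' polyphosphatase 0.518, 0.983, 0.779, 0.631, 0.0817 and 0.994. The ratio of spermatogonia to the 5' polyphosphatase library was 58.0, 40.9, 40.1, 43.6, 6.02 and 37.1, and with 1 replicate 18.0 or 32.4. To the TAP library it was 41.7 with TMM library sizes and 37.3 with median-of-ratios size factors, and with 1 replicate 60.4 or 109. By subfamily, TAP to untreated fell below 1 per 5S rRNA read (B2_Mm1a 0.783, B2_Mm1t 0.684, B2_Mm1o 0.829, B2_Mm2 0.758) and per listed read without rRNA and snoRNA (0.535, 0.466, 0.566 and 0.517). TAP to 5' polyphosphatase rose above 1 for B2_Mm1t with TMM library sizes (1.17) and median-of-ratios size factors (1.18), and with the latter for B2_Mm2 (1.01). Of all 206 alternatives, 77 kept their value within the error, 116 moved and 13 turned, and the cause was not tested. For the enzyme ratios the error was the counting interval, and for the ratios of spermatogonia to testis the SD of the 2 replicates. Leaving out 1 of 2 replicates cannot move a mean ratio by more than that SD, so those alternatives could not fail. The paper's methods describe the testis treatments as portions of whole-testis RNA, so these libraries may share a source. Pairing them would give only 1 set, which leaves a paired test without replication. No result comes from a test. With 170 B2 reads in untreated testis, depth limits every subfamily ratio to it.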
